A study of Mus musculus with 6 samples.

Results

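Gabrg3, which encodes the gamma-3 subunit of the GABA-A receptor, was examined together with 3 genes that lie beside it on mouse chromosome 7, Gabra5, Oca2 and Herc2. The members are the rows of the deposited expression table on chromosome 7 that carry these symbols, 4 rows out of 44519. Gabrg3 was chosen by its measured FPKM, high in TNF and near 0 in control libraries, so its values in that contrast are a description without a test. Its neighbours were taken by position. The TNF group held 3 libraries (replicates 1, 3 and 4) of GFP-positive horizontal basal cells (HBCs), the reserve stem cells of the olfactory epithelium, sorted from mice that carry Krt17-EGFP together with Cyp2g1-rtTA and TRE-TNF and had received doxycycline for 6 weeks. In these mice the Cyp2g1 promoter, active in sustentacular cells, drives the doxycycline-dependent activator rtTA, which switches on tumor necrosis factor (TNF) from the TRE-TNF transgene. The control group held 3 libraries (replicates 1, 2 and 4) of the same sorted population from Krt17-EGFP mice, labelled NoDox. All 6 libraries therefore carry the Krt17-EGFP reporter, and the groups differ in the Cyp2g1-rtTA and TRE-TNF alleles, in doxycycline and in inflammation, which cannot be told apart. The sources used here do not state where in the genome the transgenes lie, how old the mice were or whether each RNA sample came from a single mouse, so p-values measure only the spread among these samples.

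GABA-A receptors are pentameric chloride channels opened by the transmitter GABA. A channel is usually built from alpha and beta subunits together with a gamma, delta or other accessory subunit, and the gamma subunits help to cluster receptors at synapses. Gabrg3 stands in a cluster with Gabra5, the gene of the alpha-5 subunit, next to the pigmentation gene Oca2, whose product is a melanosomal membrane protein, and to Herc2, which encodes a very large HECT ubiquitin ligase with a role in DNA damage signalling.

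Expression was given as FPKM, fragments scaled to transcript length and sequencing depth, and values are listed below for TNF replicates 1, 3 and 4 and control replicates 1, 2 and 4, in that order. Library sums ran from 688190 to 838417 FPKM in TNF and from 769766 to 837515 FPKM in control libraries. In genes with a single annotated transcript over 1500 bases, the lowest values clustered at a step that is taken here as 1 fragment. This step was 0.0395 to 0.0475 FPKM times kilobases in TNF libraries and 0.0386 to 0.0446 in control libraries. TNF replicate 1 (Pearson correlation 0.909 to 0.912 with its group, across genes, which are not independent replicates) and control replicate 4 (0.922 to 0.931) stood apart from the others of their groups (0.983 between TNF replicates 3 and 4, 0.972 between control replicates 1 and 2). Trp63, the transcription factor of HBCs, was at 97.2 ± 18.8 FPKM in TNF and 75.3 ± 9.43 FPKM in control libraries (SD, n = 3 each). The merged Krt14 and Krt17 row was at 4363 ± 1118 and 1478 ± 965 FPKM, and Krt5 at 613 ± 345 and 275 ± 108 FPKM, in TNF and control libraries. None of these rows was called (limma, adjusted p = 0.196 for Trp63, 0.0741 for the merged row and 0.110 for Krt5). The summed FPKM of 11 mature olfactory neuron markers, Stoml3 and S100a5 among them, was 1051 to 2890 in TNF and 8694 to 16777 in control libraries, and all 11 were called lower. For 8 immature neuron markers, led by Stmn1 and Gap43, the sums were 266 to 413 and 3821 to 8167 FPKM, and all 8 were called lower. Among all rows tested 10.9% were called higher and 27.2% lower, 38.0% in all, and the other marker lists are to be read against these shares. Of 9 tested HBC markers 3 were called higher and 1 lower, of 8 tested globose basal markers 2 and 2, and of 8 tested sustentacular markers 2 and 4. Of 5 tested Bowman gland markers 0 were called in either direction, and of 6 tested ensheathing glia markers 1 was called higher. Lower calls were made for 5 of 8 tested macrophage markers, 2 of 4 tested T and NK cell markers and 4 of 6 tested B and plasma cell markers, with 0 higher. Some markers called lower passed the filter on low values through the control libraries alone, so their being lower is partly set by it. In bulk values fewer cells of a type and less RNA per cell cannot be told apart.

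The Gabrg3 row spans chromosome 7, 56716465 to 57387188 (mm10), on the minus strand. GENCODE M21 gives it 3 transcripts, the longest of 9767 bases in 10 exons, and none of its exons overlaps an exon of another gene. The start of Gabrg3 lies 84 bases from that of Gm9962, an antisense gene on the plus strand, so the window of 250 bases before to 50 bases after the RefSeq start (GRCm38.p6, chr7:57387166-57387465, minus strand) holds both starts. It is shown because the values on either side of it are described below, with the 83 bases between the GENCODE starts of Gabrg3 and Gm9962 in capitals.
Gabrg3 promoter: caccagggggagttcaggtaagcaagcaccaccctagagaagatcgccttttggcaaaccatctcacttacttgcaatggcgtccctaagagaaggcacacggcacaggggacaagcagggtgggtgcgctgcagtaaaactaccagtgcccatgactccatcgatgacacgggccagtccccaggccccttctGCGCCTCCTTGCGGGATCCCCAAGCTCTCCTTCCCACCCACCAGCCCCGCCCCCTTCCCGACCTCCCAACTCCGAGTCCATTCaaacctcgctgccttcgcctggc
On either strand this window held no match to the NF-kB consensus, to the interferon motifs GAS (TTCNNNGAA) and ISRE (by name), to the AP-1 motif TGANTCA or to TATAAA, and it held 1 GGGCGG box, which begins 10 bases before the RefSeq start. Among 32817 mouse promoter windows of the same length, 4.50% held the NF-kB consensus, 8.29% TTCNNNGAA, 3.43% the ISRE, 7.81% TGANTCA, 13.6% TATAAA and 35.6% GGGCGG. The windows of Gabra5, of Oca2 and of both listed Herc2 starts likewise held none of the first 5 motifs. The NF-kB consensus was searched only in a strict form that begins with GGG, so looser forms of it may be present in these windows. The absence of these letters says nothing about a factor outside this window.

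Gabrg3 was present at a moderate level in the TNF libraries and close to absent in the controls. It was at 42.0, 52.2 and 46.4 FPKM in TNF libraries 1, 3 and 4, against 0, 0.00421 and 0 FPKM in control libraries 1, 2 and 4. Each TNF library lay far above each control library, and the TNF mean was 46.9 ± 5.14 FPKM (SD, n = 3). On the log2(FPKM + 1) scale the difference was 5.57, a scale on which the pseudocount of 1 sets the size of the difference. It was the 7th highest among the 15037 rows that passed the filter, which Gabrg3 passed through the TNF libraries alone. Difference and rank describe values that also chose the gene and are no test. Counted along the longest transcript, the TNF values equal about 8630, 11635 and 11459 fragments, and along the shortest one of 1496 bases 1322, 1782 and 1755 fragments. The value of control replicate 2 equals about 1 fragment along the longest transcript. A single value per row does not tell which exons or which strand the fragments came from.

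The TNF libraries gave similar Gabrg3 levels although they differed in other respects. Its coefficient of variation among them was 10.98%, a description of values that also chose the gene. The median was 36.4% over the 39 rows past the threshold and higher by at least 4 on the log2 scale. These rows were picked from the same contrast and include Gabrg3, and 5 of them varied less than Gabrg3. TNF replicate 1 lay 0.22 log2 units below the mean of TNF replicates 3 and 4 for Gabrg3, and the median size of that deviation over the 39 rows was 1.003. The summed FPKM of 7 fibroblast markers was 41.7, 1084 and 1557 across TNF libraries, and 141 to 528 in control libraries. The summed FPKM of 6 endothelial markers was 0.726, 56.1 and 92.0 in those TNF libraries, and 10.6 to 13.4 in control libraries. The TNF library with the lowest fibroblast and endothelial sums was the one with the lowest Gabrg3 value, 42.0 FPKM, and of the 6 fibroblast and 4 endothelial markers tested 0 were called by limma (0 at an unadjusted p below 0.05). Tnf itself, in which transgenic and endogenous transcripts cannot be told apart, was at 142, 91.9 and 102 FPKM across TNF libraries and at 7.63, 28.05 and 7.58 FPKM across controls. Cyp2g1, the gene whose promoter drives rtTA, was at 26.5, 0.221 and 0.533 FPKM in the TNF libraries and 246 to 332 FPKM in the controls. The native Cyp2g1 gene also lies on chromosome 7 (26808917 to 26834891), far from Gabrg3. Gabrg3 was lowest in TNF replicate 1, where Cyp2g1 was highest among TNF libraries, and a relation between these genes was not tested.

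**Figure D1:**
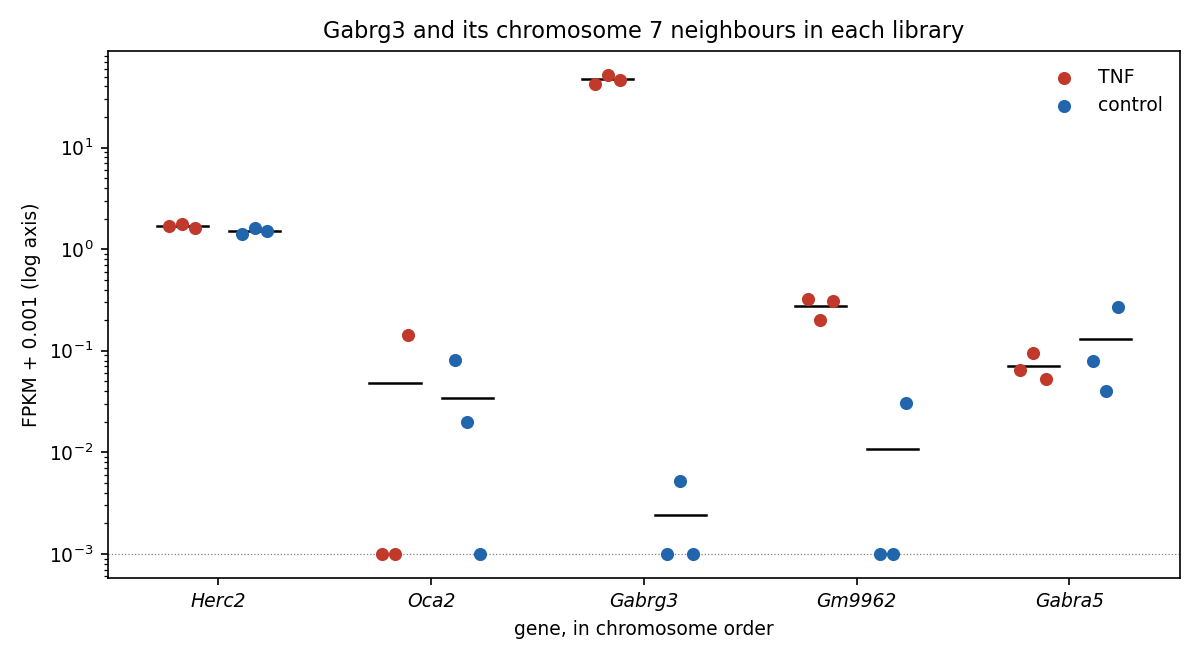
FPKM plus 0.001 on a log axis for Gabrg3, its 3 listed neighbours and Gm9962, in chromosome order, with TNF libraries in red to the left and control libraries in blue to the right, group means being drawn as black lines. The dotted line marks 0 FPKM. Gabrg3 is at 42.0 to 52.2 FPKM in TNF libraries and at most 0.00421 FPKM in controls, while the groups overlap for Herc2, Oca2 and Gabra5.

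The alpha-5 subunit gene Gabra5, the next coding gene on the same strand, stayed near 0 in all libraries. Its row gives wider bounds that it shares with Gm9962, and in GENCODE the gene runs from 57407672 to 57510059, 20.5 kb from the end of the Gabrg3 row. Gabra5 was at 0.0630, 0.0950 and 0.0514 FPKM across TNF libraries, against 0.0777, 0.0391 and 0.270 FPKM across controls. The groups overlapped, and control replicate 4 held the highest value. These values equal about 4, 6 and 3 fragments in TNF and 5, 2 and 19 fragments in control libraries along its longest transcript, so a small difference would not be detectable at this depth. Gabra5 did not reach the minimum of 1 FPKM in 3 libraries and was not tested.

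Oca2, on the opposite strand 180 kb from the other end of Gabrg3 (row bounds 56239760 to 56536517), was also near 0. It was at 0, 0 and 0.141 FPKM across TNF libraries, against 0.0807, 0.0187 and 0 FPKM across controls. Only TNF replicate 4 and control replicates 1 and 2 showed it at all, and the groups overlapped. Along its longest transcript the values equal at most about 12 fragments in a TNF library and 6 in a control library, and Oca2 was not tested.

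Herc2 was the only one of the 3 neighbours with a level high enough to test. Its row runs from 56050155 to 56231794 on the plus strand, 485 kb from Gabrg3 by the GENCODE bounds. Herc2 was at 1.70, 1.75 and 1.61 FPKM across TNF libraries, against 1.40, 1.62 and 1.501 FPKM across controls. The groups overlapped by a narrow margin. The log2 difference was 0.10 ± 0.16 (SE, 95% interval −0.28 to 0.48), which did not pass the test (limma over all rows, adjusted p = 0.650, n = 3 each), although quantile normalization gave 0.65 (limma, adjusted p = 0.0235). Its long transcript made this value better counted than those of Gabra5 and Oca2, at about 547 to 621 fragments in TNF and 487 to 594 in control libraries.

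Gm9962 was singled out after its values were seen, as the gene whose start is nearest to that of Gabrg3. It was at 0.326, 0.200 and 0.306 FPKM across TNF libraries, against 0, 0 and 0.0297 FPKM across controls. The groups did not overlap, but the levels were low, at about 10, 6 and 11 fragments in TNF and 0, 0 and 1 in control libraries along its longest transcript. Its last exon overlaps the exons of Gabra5 on the other strand, and the sources used here do not state how strand was treated, so fragments of these genes cannot be told apart there. It was not tested. None of the 6 pseudogenes that GENCODE places inside the Gabrg3 span has a row in the table.

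Within 2 Mb of Gabrg3 the deposited table holds 55 rows, of which 36 were at 0 throughout and 8 were above 0 but did not pass the filter on low values. Apart from Gabrg3, 10 rows were tested. Of these, 3 were called higher and 2 lower (limma, adjusted p below 0.05), against 10.9% called higher, 27.2% called lower and 38.0% called in either direction among all rows tested. The rows called lower passed the filter through the control libraries alone, so their being lower in TNF libraries is partly set by the filter. The median log2 difference of the 10 rows was 0.13, and that of all rows tested was −0.22. The groups did not overlap for 7 of the 10, with TNF above in 4 and below in 3, against 53.0% of all rows tested, 16.8% with TNF above and 36.2% with TNF below. Scaling changed the split of calls, to 4 higher and 1 lower under median-of-ratios or upper-quartile scaling and 5 higher and 0 lower under quantile normalization, while over all rows 28.6% of calls were higher as deposited and 40.7 to 45.2% under these scalings. The counts without a library were 3 without TNF replicate 3, 2 without control replicate 1, 2 or 4, and 3 of 7 tested without both control replicate 4 and TNF replicate 1.

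The 3 genes called higher lay on both sides of Gabrg3 and differed far less than it did. Cyfip1, a component of the WAVE actin regulatory complex, was at 47.1, 54.7 and 59.0 FPKM across TNF libraries, against 20.9, 27.6 and 16.7 FPKM across controls. It rose by 1.29 ± 0.22 on the log2 scale (limma, adjusted p = 0.00430), with no overlap between the groups, and some of its exons overlap Nipa2. Atp10a, a phospholipid flippase gene, was at 3.01, 4.75 and 5.03 FPKM in TNF libraries, against 0.641, 0.534 and 1.46 FPKM in controls. It rose by 1.497 ± 0.27 (limma, adjusted p = 0.00591), again without overlap. Nipa1, a magnesium transporter gene, averaged 14.2 ± 1.21 FPKM in TNF and 8.84 ± 1.53 FPKM in control libraries (SD, n = 3 each), a rise of 0.64 ± 0.20 (limma, adjusted p = 0.0415). The Nipa1 call was lost without TNF replicate 3 or 4 or any control replicate (limma, adjusted p = 0.0708 to 0.154), and it shares its row bounds and some exon sequence with A230056P14Rik.

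The merged row of A230056P14Rik and Gm15888 was among those called lower. It passed the filter on low values through the control libraries alone, so its being lower in TNF libraries is partly set by the filter. It was at 0.463 ± 0.160 FPKM in TNF and 1.82 ± 0.256 FPKM in control libraries (SD, n = 3 each), a difference of −0.95 ± 0.17 (limma, adjusted p = 0.00559), not called under quantile normalization (limma, adjusted p = 0.116) and below the filter without any control replicate.

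The other 5 tested rows, Herc2 among them, did not pass. Nipa2, also a magnesium transporter gene, was at 65.6 ± 2.17 FPKM in TNF and 50.4 ± 5.46 FPKM in control libraries (SD, n = 3 each; 0.38 ± 0.15, limma, adjusted p = 0.0828), and it passed under each of the 3 scalings (adjusted p = 0.0132 to 0.0312). Tubgcp5, which encodes a gamma-tubulin complex component, was at 7.02 ± 0.607 and 9.92 ± 1.22 FPKM in TNF and control libraries (limma, adjusted p = 0.114). Ube3a, the ubiquitin ligase gene that is imprinted in neurons, was at 28.04 ± 6.54 and 34.02 ± 7.70 FPKM in TNF and control libraries (limma, adjusted p = 0.441). Luzp2 was at 0.398, 4.06 and 3.12 FPKM across TNF libraries and at 3.87, 2.31 and 0.283 FPKM across controls (limma, adjusted p = 0.863).

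**Figure D2:**
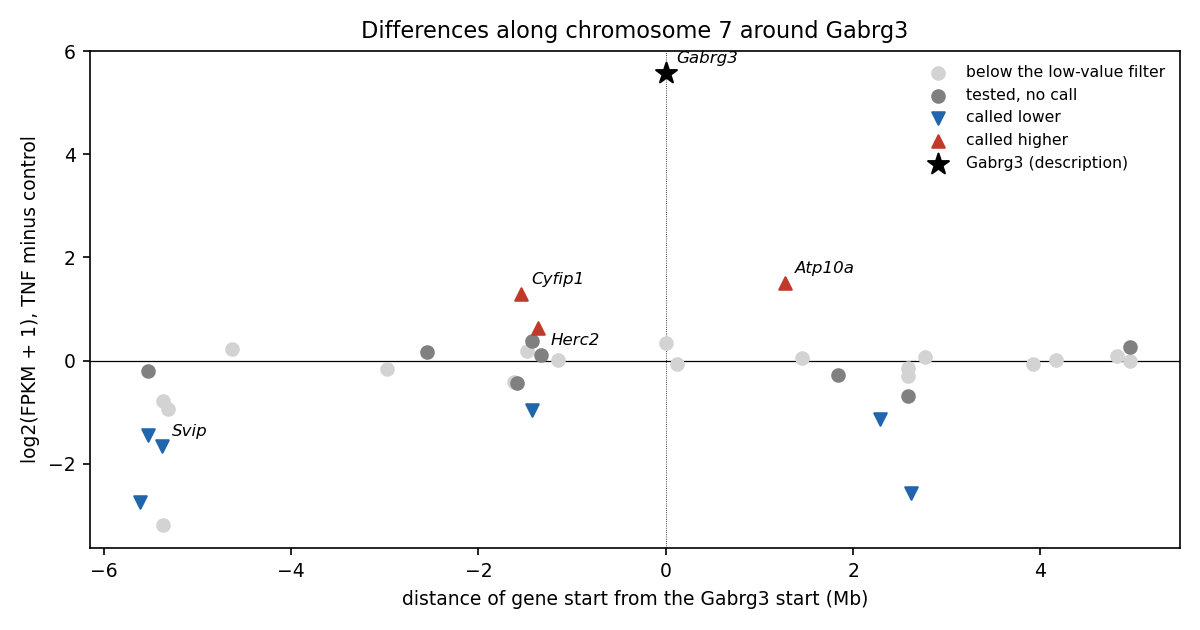
Difference in log2(FPKM + 1), TNF minus control, against the distance of each gene's start from the Gabrg3 start in Mb, for the plotted rows within 5 Mb that were above 0 in a library. The star is Gabrg3 at 5.57, and the next highest differences are 1.497 for Atp10a and 1.29 for Cyfip1, with called genes in red or blue, tested genes without a call in grey and rows below the filter in light grey.

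Among the genes of GABA-A receptor subunits, Gabrg3 had the highest level in each TNF library. All 19 subunit genes had a row. Gabrg3 made up 74.5, 65.8 and 66.5% of their summed FPKM across TNF libraries, against 0, 0.0241 and 0% across controls. Without Gabrg3 the sums were 14.4, 27.1 and 23.3 FPKM in TNF and 20.5, 17.5 and 13.2 FPKM in control libraries, so the groups overlapped. Only 4 subunit genes passed the filter, 14 were above 0 without passing it, and Gabrr3 was listed at 0 throughout. The subunit genes called lower, Gabrr1 among them, passed the filter through the control libraries alone, so their being lower in TNF libraries is partly set by it. Of the 3 tested besides Gabrg3, none was called higher and 2 were called lower by limma, with 1 higher and 2 lower at an unadjusted p below 0.05, against 10.9% called higher and 27.2% called lower among all rows tested. The count was 1 without TNF replicate 1 or 3, and 0 without control replicate 1, 2 or 4, when Gabrp was the only subunit gene besides Gabrg3 that could be tested.

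Gabrp, the pi subunit gene known from epithelia, was the second highest subunit gene in the TNF libraries. It was at 13.4, 25.03 and 20.9 FPKM across TNF libraries, against 12.6, 11.6 and 3.61 FPKM across controls. The groups did not overlap, but the difference of 1.12 ± 0.46 on the log2 scale did not pass (limma, adjusted p = 0.09996), and it passed without both control replicate 4 and TNF replicate 1 (0.86, limma, adjusted p = 0.00552). Gabrr1, which encodes the rho-1 subunit, was at 0.0404, 0 and 0.0164 FPKM in TNF libraries, against 3.27, 3.35 and 4.13 FPKM in controls. It fell by 2.17 ± 0.16 (limma, adjusted p = 0.000411), in the libraries in which the neuron marker sums were lower, whose part was not tested, and without any control replicate it no longer reached the filter.

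The alpha subunit genes did not approach the level of Gabrg3. The highest value of any of the 6 alpha subunit genes was 0.248 FPKM for Gabra2 in TNF libraries and 0.506 FPKM for Gabra3 in control libraries. The beta subunit gene Gabrb2 was at most 0.904 FPKM in TNF and 0.640 FPKM in control libraries. Gabra6, Gabrg1, Gabrq and Gabrr3 were listed at 0 in all 3 TNF libraries.

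**Figure D3:**
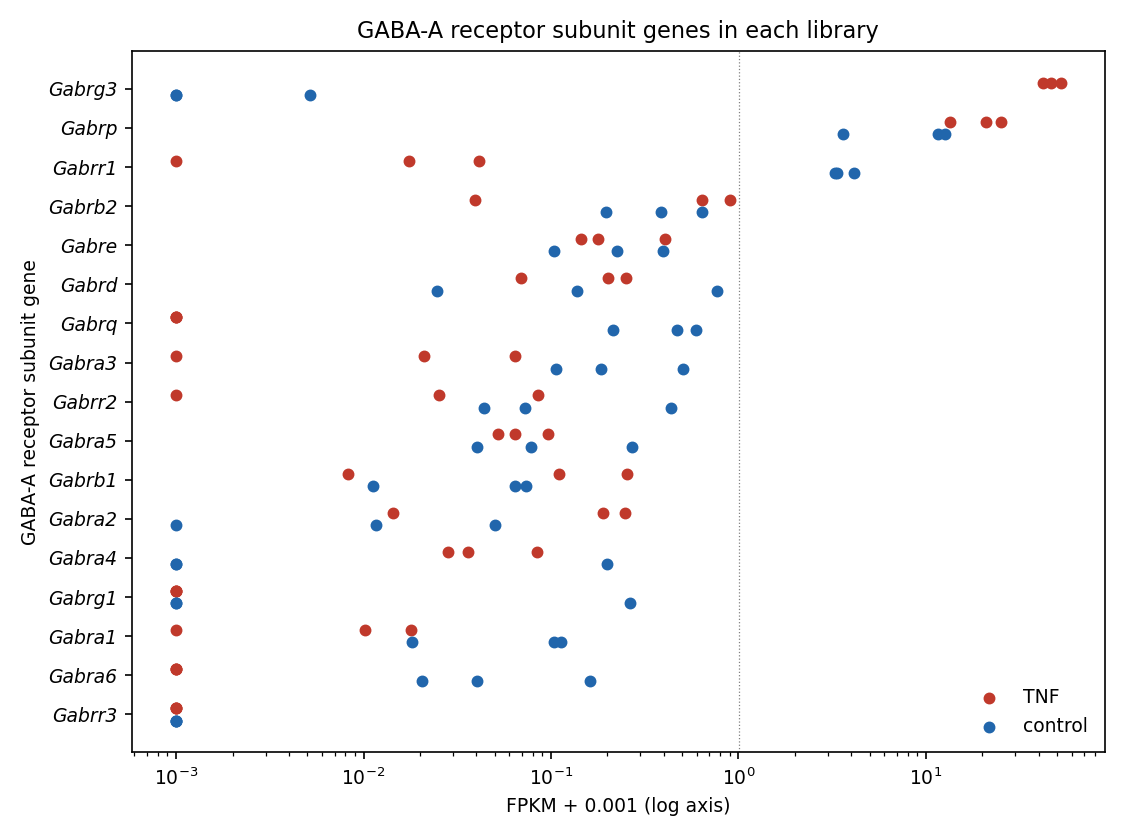
FPKM plus 0.001 on a log axis for 17 GABA-A receptor subunit genes, ordered by their mean over the 6 libraries, with TNF libraries in red above and control libraries in blue below for each gene. The dotted line is at 1 FPKM, and only Gabrg3 and Gabrp lie above it in the TNF libraries.

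Both subunit genes of the GABA-B receptor fell, and the genes of GABA synthesis were low. Of 11 genes of GABA synthesis, transport, breakdown and GABA-B receptors 4 were tested, 0 were called higher and 2 lower by limma (0 and 2 at an unadjusted p below 0.05), with a median log2 difference of −0.69, against 10.9% called higher, 27.2% called lower and a median of −0.22 over all rows tested. Gabbr2 and Gabbr1 encode the subunits of the metabotropic GABA-B receptor. Gabbr2 was at 0.387 ± 0.626 FPKM in TNF and 7.97 ± 1.62 FPKM in control libraries (SD, n = 3 each), a fall of 2.77 ± 0.34 (limma, adjusted p = 0.00141). Gabbr1 was at 14.0 ± 4.65 and 33.8 ± 2.70 FPKM in TNF and control libraries, a fall of 1.26 ± 0.24 (limma, adjusted p = 0.00695). The GABA synthesising enzyme gene Gad1 was at most 0.05998 FPKM in TNF and 0.0847 FPKM in control libraries. Gad2 was at 0.250, 0.00732 and 0 FPKM across TNF libraries and at 3.54, 0.831 and 3.10 FPKM across controls, and it was not tested. The neuron marker sums were lower in the same TNF libraries. The row of the mature neuron marker Omp, merged with Capn5, was at 259, 9.74 and 8.37 FPKM across TNF libraries and 671 to 1323 FPKM in controls. Within the TNF group this row was highest in replicate 1, as were Gabbr2 and Gad2. The part of neurons in the values of Gabbr1, Gabbr2 and Gad2 was not tested. Abat and Aldh5a1, which break GABA down, did not pass (limma, adjusted p = 0.834 and 0.736).

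Of 12 genes of receptor anchoring and trafficking 10 were tested, 1 was called higher and 4 lower, with a median of −0.21, against 10.9% called higher, 27.2% called lower and a median of −0.22 over all rows tested. Lhfpl4, a tetraspan partner of synaptic GABA-A receptors, was at 0.185 ± 0.248 FPKM in TNF and 5.25 ± 2.82 FPKM in control libraries (SD, n = 3 each), a fall of 2.33 ± 0.34 (limma, adjusted p = 0.00246), and without any control replicate it left the filter. Lhfpl4 passed the filter through the control libraries alone, so its being lower in TNF libraries is partly set by the filter. It too was highest among TNF libraries in replicate 1, at 0.471 FPKM, and the part of neurons in it was not tested. Gabarapl2, a member of the GABARAP family of autophagy proteins, fell by 0.98 ± 0.23 (limma, adjusted p = 0.0169), a call lost without TNF replicate 3 or 4 or control replicate 1 or 4 (limma, adjusted p = 0.0519 to 0.0718). Trak1, a kinesin adaptor gene, rose by 1.14 ± 0.27 (limma, adjusted p = 0.0170), a call lost without TNF replicate 3 or 4 or control replicate 1 (limma, adjusted p = 0.0601 to 0.0703). Gphn, which encodes the synaptic scaffold gephyrin, was at 13.8 ± 2.52 FPKM in TNF and 10.1 ± 2.73 FPKM in control libraries and did not pass (limma, adjusted p = 0.238). Of 6 chloride transport genes 5 were tested and 0 were called in either direction by limma, with 0 at an unadjusted p below 0.05. The chloride importer gene Slc12a2 was at 39.1 ± 5.25 FPKM in TNF and 43.8 ± 9.44 FPKM in control libraries (SD, n = 3 each).

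The lists that belong to Oca2 and Herc2 were described in the same way. Of 11 pigmentation genes with a row 4 were tested, and 0 were called in either direction by limma (0 at an unadjusted p below 0.05). Of the melanocyte genes that were not tested, Tyrp1, Dct and Slc45a2 were at most 0.0461 FPKM in TNF and 0.0644 FPKM in control libraries. The tyrosinase gene Tyr was at 0 to 0.104 FPKM in TNF and 0.377 to 0.816 FPKM in control libraries. Mlana was at 0 in TNF and 0.106 to 0.490 FPKM in control libraries. Slc24a5 was at 0.128 to 0.347 FPKM in TNF and 0.873 to 1.83 FPKM in control libraries. The groups did not overlap for these 3 genes, with TNF below. That also held for 36.2% of all rows tested, a set that leaves these 3 low rows out. Pmel was at 0.305 to 0.457 FPKM in TNF and 0.0673 to 0.399 FPKM in control libraries, with overlap. Of 14 HERC ligases and HERC2 partners 13 were tested, 1 was called higher and 2 lower, 23.1% in all, with a median of −0.11, against 10.9% called higher, 27.2% called lower and 38.0% in all over the rows tested. Herc6, an interferon-induced ligase gene, was at 3.89, 13.7 and 13.0 FPKM across TNF libraries and at 1.14, 1.76 and 1.74 FPKM across controls. It rose by 1.99 ± 0.45 (limma, adjusted p = 0.0136), a call lost without control replicate 1 (limma, adjusted p = 0.0657). Herc3 fell by 1.15 ± 0.22 (limma, adjusted p = 0.00689). Herc1 fell by 0.93 ± 0.22 (limma, adjusted p = 0.0159), a call lost without TNF replicate 4 or control replicate 1 or 2 (limma, adjusted p = 0.0612 to 0.0773) and under quantile normalization (limma, adjusted p = 0.133).

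**Figure D4:**
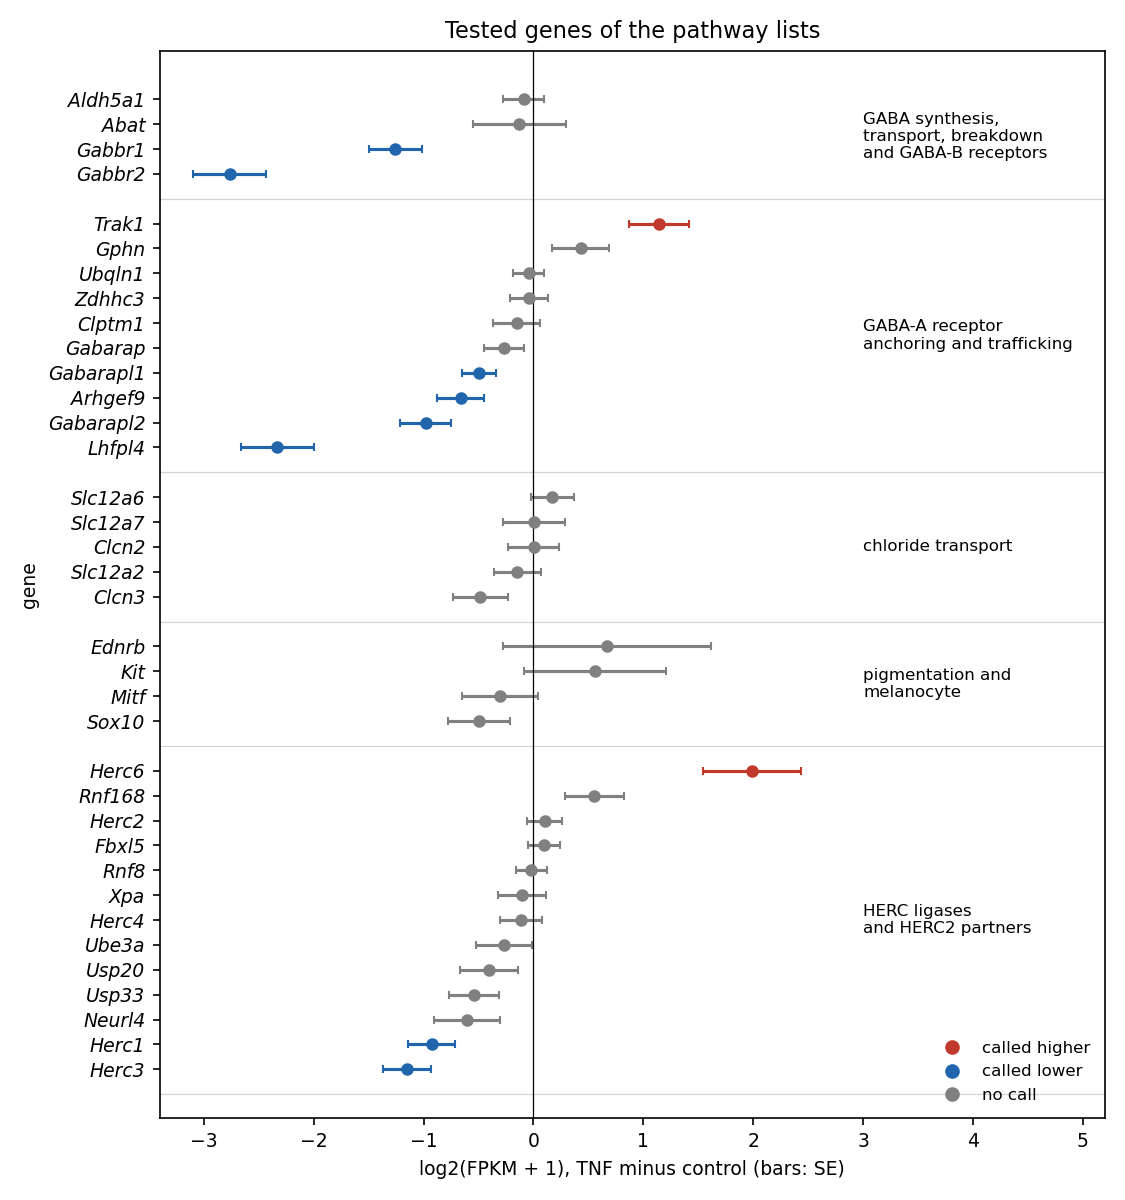
Difference in log2(FPKM + 1), TNF minus control, with its SE for each tested gene of 5 lists (n = 3 per group), with genes called higher in red, called lower in blue and without a call in grey. Gabbr2 at −2.77 and Lhfpl4 at −2.33 have the lowest values and Herc6 at 1.99 the highest.

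The rows most like Gabrg3 across the 6 libraries were sought by the root mean square difference between log2(FPKM + 1) profiles, each centred on its own mean, among rows averaging 5 FPKM or more and leaving out predicted genes. Because Gabrg3 was chosen for its pattern, these values are a description. Skint10 on chromosome 4, a gene of an immunoglobulin superfamily expressed in skin and thymus epithelium, came nearest, with a root mean square difference of 0.25. It was at 28.9, 49.9 and 47.9 FPKM across TNF libraries and at 0, 0.119 and 0.190 FPKM across controls. The complement protease gene C1s1 followed at 0.33, then the serpin gene Serpina3g at 0.49, the class I gene H2-M2 at 0.52 and Cpxm2 at 0.55. These 4 genes had control means of 11.7, 6.31, 4.55 and 4.67 FPKM, well above that of Gabrg3, and C1s1 shares its row bounds with Gm16567. Cpxm2 also lies on chromosome 7, in a row that runs from 130162451 to 133124354.

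With thresholds set after the values were seen, 28038 rows were under 1 FPKM in all controls, 17077 of them at 0 in all 6 libraries. Of the 28038 rows, 10 reached at least 10 FPKM in all TNF libraries. Gabrg3 had the highest minimum over TNF libraries of the 10, 42.0 FPKM, followed by Skint10 at 28.9 FPKM. The other 8 rows were Gm26863, AC137871.1, Sprr2a3, Lyz1, Calcb, Clca3a2, Tmprss11d and Il23a, with minima of 22.9 down to 11.1 FPKM. Of the 10, only Gabrg3 and AC137871.1 were under 0.01 FPKM in all controls, and AC137871.1 was listed at 0 in each of them and at 22.04, 20.2 and 18.1 FPKM across TNF libraries.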

How the data were processed

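Sorted HBCs of 3 TNF and 3 control samples were profiled by bulk RNA sequencing. The authors deposited FPKM values per row and library. TopHat2 2.1.1, Cuffdiff 2.2.1, bcl2fastq, FastQC 0.10.1 and the build mm10 are named in the submitters' processing notes, without settings, strand or duplicate handling. Since 99.98% of non-zero values are fractional, count models were not applied. No column belongs to another series. Deposited starts count from 0 and are given here from 1. GENCODE M21 had the same bounds for 70.5% of 24556 rows with a unique symbol and locus.

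Log2(FPKM + 1) values of rows reaching 1 FPKM in 3 or more libraries were compared between the 2 groups by limma 3.58.1 (R 4.3.3, eBayes trend on), with Benjamini-Hochberg adjustment over all 15037 such rows and a threshold of 0.05. The procedure was tested on simulated data. The members and lists (18 lists, 6 of pathways and 12 of markers) were chosen with earlier results of these data known. Each symbol was taken from the row of highest mean that names it; 2 were not used here and 1 was matched by an older name. Named were the members, tested rows within 2 Mb, subunits with a group mean of at least 1 FPKM, up to 3 called genes per list with the smallest p, 5 rows most like Gabrg3, and checks of the sort and transgene. Gm9962, Gphn, Slc12a2, Abat, Aldh5a1, the Gad genes, Omp, the untested melanocyte genes, the low subunit genes, S100a5 and the rows near 0 in controls were named outside this rule, after their values were seen. Fragments were estimated as FPKM times transcript length over the step of 1 fragment, the median of values under 0.06 FPKM times kilobases. Some genes counted in the lists and window are not reported here by name. Amplification copies are not separated in them. Promoters are from RefSeq (GRCm38.p6), which listed all 4 members. Alternatives were other pseudocounts, no filter, 3 scalings, no trend, a replicate block and the omission of libraries.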

Additional observations from a re-analysis of the deposited data

How the results depend on the processing

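Of the results above, the Gabrg3 difference was 5.49 to 5.69 under the alternatives, except with a pseudocount of 0.1 (8.85) or 5 (3.37). Gabrg3 was chosen for being high in TNF and near 0 in control libraries, so its direction here was fixed by that choice. Oca2 moved by less than the spread of replicates, between −0.05 and 0.08. Herc2 was called at 0.65 under quantile normalization. Gabra5 was at −0.31 with a pseudocount of 0.1 and at 0.10 under quantile normalization, neither tested, and its sign also turned without control replicate 4 (0.02). The cause of these shifts was not tested. Over the whole table the median difference was −0.22 without further scaling and 0.01, −0.01 and 0.02 after median-of-ratios, upper-quartile and quantile scaling, and these gave 2353 higher and 3120 lower, 2188 and 3185, and 2528 and 3062 rows, against 1635 and 4083 as deposited.

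Leaving out 1 library gave 2475 to 6940 called rows (5718 with all), 2 to 4 of the chromosome 7 rows within 2 Mb (5 with all), 0 to 2 subunit genes (2 with all), 3 to 12 genes of the other pathway lists (10 with all) and 19 to 53 markers (45 with all). Omitting control replicate 4 and TNF replicate 1 together, chosen after seeing the data, gave 3 chromosome 7 rows and 1 subunit gene, Gabrp. Apart from Gabrg3, a window of 5 Mb held 10 called rows of 18 tested, 3 higher and 7 lower. A window of 1 Mb held 4 of 7 tested, 2 higher and 2 lower. Among all rows tested 10.9% were called higher and 27.2% lower. The count of subunit genes was 1 with a pseudocount of 0.1 or 5 and under each of the 3 scalings.

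Replicate numbers 1 and 4 occur in both groups. The deviations of same-numbered samples had correlations of −0.06 and −0.09 across genes, within the range of −0.15 to 0.18 of differently numbered ones. With 3 libraries per group these values cannot decide whether the numbers pair the samples, and no pairing was assumed. With the replicate block 2990 rows were called, 1 on chromosome 7 within 2 Mb, 1 subunit gene and 2 genes of the other pathway lists. Control replicate 2 and TNF replicate 3 have no partner of the same number, so with the block the contrast rests on replicates 1 and 4 alone. The loss of calls there therefore cannot be read as an effect of pairing. The Gabrg3 difference was 5.50 with the block. Depth limits Gabra5, Oca2 and Gm9962, whose values rest on at most about 19, 12 and 11 fragments. Without a TNF library Gabrg3 itself no longer reached the filter, so its value there has no fit behind it.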
